A study of Mus musculus with 18 samples.

Results

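The genes of telomerase and shelterin were chosen by symbol. They were Tert, Dkc1, Terf1, Terf2, Terf2ip, Pot1a, Acd, Tinf2, Rtel1 and Rif1, together with the promoter upstream transcript (PROMPT) listed under the same symbol. All 10 were among the 21859 genes of the gene table, and 7 of them had a row among the 32253 PROMPTs. RNA came from E14 mouse ES cells grown without feeders in LIF with inhibitors of GSK3 and MEK, and osTIR1, the plant F-box protein that lets auxin trigger degradation of a tagged protein, had been integrated in every line. Untagged cells were compared with 2 clones, SPT16_AID_V5_Clone1 and SPT16_AID_V5_Clone2, in which the FACT subunit SPT16 carried a mini-AID and V5 tag. Each line was treated for 24 h with 0.1% ethanol or with 3-IAA, an auxin, and nascent RNA was labelled with 4-thiouridine for 5 min and sequenced (TT-seq). This gave 6 groups of 3 libraries, 18 in all, and the study's methods call the clones biological and the repeats technical replicates. The labels give the dose of 3-IAA as 500 nM, and the methods give the same figure in µM.

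The values described here are the authors' mean over libraries of read counts divided by size factors, 1 value per gene or PROMPT. SPT16-depleted and control libraries are pooled in that mean, so it holds no spread between replicates and no difference between treatments, and it cannot check the depletion. Each statement below is therefore about how strongly a gene was transcribed across the whole experiment, without an error or a test.

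Telomerase adds telomeric repeats to chromosome ends. Tert is its reverse transcriptase, and Dkc1 encodes dyskerin, which stabilizes the RNA template. Shelterin coats the repeats: the products of Terf1 and Terf2 bind the double strand, that of Terf2ip (RAP1) rides on TRF2, those of Tinf2 (TIN2) and Acd (TPP1) bridge to the single strand, and Pot1a encodes a protein that binds the single strand. Rtel1 encodes a helicase that unwinds telomeric loops and G-quadruplexes, and Rif1 encodes a regulator of replication timing and of repair at broken ends. ES cells are known for active telomerase. PROMPTs are short, unstable RNAs made in the opposite direction just upstream of many promoters, and in the deposited table they are transcripts antisense to a gene within 1 kb upstream of its start.

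The deposited description keeps PROMPTs clear of other annotated coding transcripts nearby. The telomere genes divided by what lies upstream of them, a split which that rule can produce by itself where the neighbour is coding. Terf2ip, Acd and Tinf2 had no PROMPT row. These were the 3 genes with another annotated gene on the opposite strand within 1000 bases upstream of the start (Gencode vM21, GRCm38). None of the 7 genes with a PROMPT row had one, also within 2000 bases. Across the gene table, such a neighbour was present for 90.2% of the 3709 genes without a PROMPT row and for 11.7% of the 18108 with one, counting genes with a vM21 model. For coding neighbours alone the shares were 51.1% and 6.67%. A neighbour of either kind was present for 5462 of the 21817 genes with a model, and for 3 of the 10 telomere genes. A PROMPT row was present for 18129 of the 21859 genes, and for 7 of the 10. Whether the telomere genes differ from all genes in either count was not tested. The neighbour of Tinf2 is not coding, and why Tinf2 has no row was not tested. The partners were Kars, which encodes lysyl-tRNA synthetase and starts 75 bases upstream of Terf2ip, Pard6a, which encodes a cell polarity protein and starts 46 bases upstream of Acd, and the antisense gene Gm49067, which starts 98 bases upstream of Tinf2. By the Gencode starts, the 2 genes of each pair begin at opposite ends of a short stretch. These stretches are shown in full. They are read 5′ to 3′ on the strand of the telomere gene, with a GC box (GGGCGG on either strand) or a CRE, the cAMP response element (TGACGTCA), in capitals.
Terf2ip and Kars: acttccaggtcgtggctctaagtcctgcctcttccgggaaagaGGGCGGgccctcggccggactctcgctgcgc
Acd and Pard6a: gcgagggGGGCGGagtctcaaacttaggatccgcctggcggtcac
Tinf2 and Gm49067: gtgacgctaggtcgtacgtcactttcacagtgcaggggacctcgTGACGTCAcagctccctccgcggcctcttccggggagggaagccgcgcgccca
The first lies at chr8:112011324-112011397, the second at chr8:105701103-105701147 and the third at chr14:55681821-55681917. They held 67.6%, 66.7% and 67.0% G and C. The first and second held 1 GC box each, and the third held 1 CRE and no GC box.

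For 8 of the 10 genes, RefSeq gives a promoter of 300 bases, from 250 before the start to 50 after it (GRCm38.p6). Terf1 and Rif1 have no entry. The RefSeq starts of Tert and Dkc1 are the Gencode starts used above, and those of the other genes with an entry differ from them. The RefSeq start of Acd lies upstream of its Gencode start. Its promoter entry, chr8:105701179-105701478, thus does not hold the stretch of 45 bases shown for Acd and Pard6a and lies within Pard6a. That of Terf2ip lies within the stretch of 74 bases shown for Terf2ip and Kars. The GC box of that stretch begins at base 9 counted from this RefSeq start. Shown here are Tert, whose PROMPT was the strongest relative to its gene, and Pot1a and Rtel1, whose PROMPTs were the weakest. Capitals mark GC boxes, the CCAAT box (CCAAT on either strand) and the CRE.
Tert: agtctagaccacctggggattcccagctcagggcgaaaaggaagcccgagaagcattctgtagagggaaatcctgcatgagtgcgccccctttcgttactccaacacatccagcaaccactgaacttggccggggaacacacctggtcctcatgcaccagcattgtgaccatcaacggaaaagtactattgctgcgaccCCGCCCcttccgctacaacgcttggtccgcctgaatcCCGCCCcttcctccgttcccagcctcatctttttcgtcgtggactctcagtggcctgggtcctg
Pot1a: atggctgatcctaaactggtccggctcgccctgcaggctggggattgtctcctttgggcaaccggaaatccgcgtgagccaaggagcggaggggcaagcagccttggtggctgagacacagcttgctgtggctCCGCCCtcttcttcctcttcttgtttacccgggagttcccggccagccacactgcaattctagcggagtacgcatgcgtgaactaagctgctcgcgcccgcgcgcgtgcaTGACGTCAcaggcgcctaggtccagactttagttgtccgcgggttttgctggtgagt
Rtel1: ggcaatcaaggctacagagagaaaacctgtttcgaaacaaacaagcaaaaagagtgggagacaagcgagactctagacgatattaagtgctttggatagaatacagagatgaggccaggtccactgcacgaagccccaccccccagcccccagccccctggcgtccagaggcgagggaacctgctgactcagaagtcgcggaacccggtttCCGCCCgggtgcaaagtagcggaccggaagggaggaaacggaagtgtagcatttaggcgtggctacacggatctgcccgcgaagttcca
These are chr13:73626661-73626960 on the plus strand, chr6:25809169-25809468 on the minus strand and chr2:181319474-181319773 on the plus strand. Positions are counted from the RefSeq start. The Tert promoter held 2 GC boxes, which begin 51 and 14 bases before the start. Pot1a had 1 GC box, beginning 117 bases before the start, and 1 CRE, beginning 7 bases before it. The Gencode start of Pot1a lies further upstream, so the CRE lies downstream of that start. Rtel1 had 1 GC box, beginning 39 bases before its RefSeq start, and its Gencode start lies further downstream.

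Over the 8 genes, 5 promoters held a GC box (Tert, Terf2, Terf2ip, Pot1a and Rtel1), as did 35.7% of all 32851 promoters in the table. The entry of Acd held none, while the 45 bases before its Gencode start held 1. A CCAAT box was present in 3 (Dkc1, Terf2 and Acd), against 37.4% of all promoters. The CRE, which was searched after the sequences had been read, was present in 2 (Pot1a and Tinf2), against 1.79%. Dkc1 alone held a TATA box (TATAAA on either strand), a match on the minus strand that begins 189 bases before the start, against 13.6% of all promoters. No promoter held an E-box (CACGTG) or a telomeric repeat (TTAGGG on either strand), which 7.15% and 10.6% of all promoters held. The promoter entries were between 48.0% G and C (Acd, at its RefSeq start) and 60.7% (Pot1a), around a table median of 52.7%.

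All 10 genes were transcribed above the level of the median gene. Levels between genes are compared as the mean per kb of merged exons, and the median over the 20140 genes with reads and a gene model was 120 per kb. The telomere genes spanned 142 to 4257 per kb, with a median of 1012. Their percentiles among all genes, the share of genes with a lower level, had a median of 82.0, and 3 genes (Terf1, Rif1 and Terf2) passed the percentile of 90. Per kb of the whole gene 5 passed it, with Dkc1 at 96.5 and Rtel1 at 90.4 added.

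**Figure D1:**
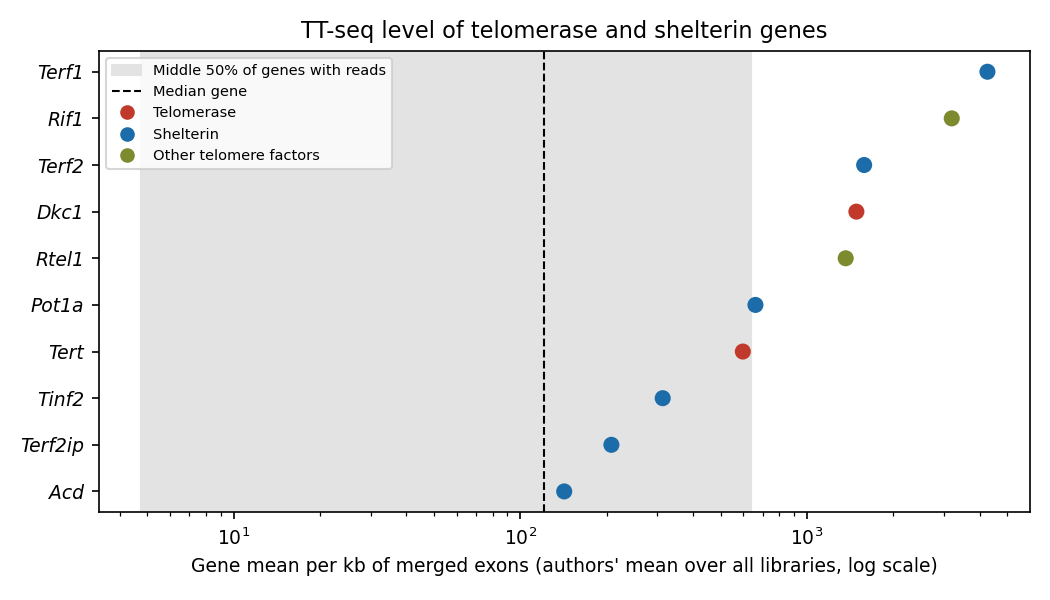
Level of each telomerase and shelterin gene, as the authors' mean over all 18 libraries per kb of merged exons on a log axis. Each point is 1 gene without an error, the grey band holds the middle 50% of genes with reads and the dashed line the median gene. All 10 points lie right of the median of 120, from Acd at 142 to Terf1 at 4257.

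Of the telomerase genes, Dkc1 was the more strongly transcribed. The gene mean of Tert (ENSMUSG00000021611, chr13:73626911-73649843, plus strand, 16 merged exons) was 3419.85 normalized reads, or 597 per kb of exons, at the percentile of 73.7. The gene mean of Dkc1 (ENSMUSG00000031403, chrX:75095854-75109777, plus strand, 15 merged exons) was 6122 normalized reads, or 1486 per kb, at the percentile of 89.8. Per kb of exons Dkc1 thus stood 2.49 times above Tert, and 2.95 times above it per kb of the whole gene. The snoRNA gene Gm25520 lies inside Dkc1 on the same strand, and the last 45 bases of Dkc1 overlap the end of Mpp1 on the opposite strand, which counting by strand keeps apart.

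Within shelterin, Terf1 and Terf2, whose products bind the double strand, had the highest levels per kb of exons, and Terf2ip and Acd had the lowest. Terf1 (ENSMUSG00000025925, chr1:15805646-15844052, plus strand, 10 merged exons) had a mean of 19617 normalized reads and the top level of the 10 genes, 4257 per kb of exons, at the percentile of 98.6. Terf2 (ENSMUSG00000031921, chr8:107069400-107096547, minus strand, 11 merged exons) had a mean of 7269 and a level of 1581 per kb, at the percentile of 90.7. Terf1 thus exceeded its paralogue 2.69 times per kb of exons, and 1.91 times per kb of the whole gene. The miRNA gene Mir7075 lies inside Terf2 on the same strand.

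Terf2ip, whose product is brought to telomeres by TRF2, was transcribed well below Terf2. Its mean (ENSMUSG00000033430, chr8:112011398-112020528, plus strand, 3 merged exons) was 1029 normalized reads, or 208 per kb of exons, at the percentile of 56.2. Terf2 exceeded it 7.62 times per kb of exons and 2.38 times per kb of the whole gene. Kars, its partner across the shared stretch of 74 bases, was the stronger of that pair at 1115 per kb, 5.37 times the level of Terf2ip. The predicted gene Gm6793 lies inside Terf2ip on the opposite strand.

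The bridge genes Tinf2 and Acd differed by 2.21 times. Tinf2 (ENSMUSG00000007589, chr14:55674689-55681820, minus strand, 5 merged exons) had a mean of 1548 normalized reads and a level of 314 per kb of exons, at the percentile of 62.3. Acd (ENSMUSG00000038000, chr8:105695860-105701102, minus strand, 11 merged exons) had the lowest mean and the lowest level of the 10 genes, 515 normalized reads and 142 per kb, at the percentile of 51.8. It was 3.00 times above Pard6a, its divergent partner, which stood at 47.3 per kb. Both genes overlap a neighbour on the opposite strand, Tinf2 over 4512 bases of Gmpr2 (128 per kb) and Acd over 2328 bases of Carmil2 (64.6 per kb).

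Pot1a, one of the 2 mouse genes for the single-strand binder, lay between Terf2 and Tinf2 per kb of exons. Its mean (ENSMUSG00000029676, chr6:25743737-25809246, minus strand, 20 merged exons) was 5726 normalized reads, or 660.5 per kb of exons, at the percentile of 75.7. It stood 4.65 times above Acd, whose product recruits it, per kb of exons. Per kb of the whole gene, which is 65510 bases long, the order turned and Pot1a was 0.889 times Acd. Pot1b, the second copy, had a level of 411 per kb of exons.

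The spread within shelterin depends on the length used. From Terf1 to Acd it was 30.0 times per kb of merged exons. The highest over the lowest came to 5.84 times per kb of the whole gene, with Pot1a lowest, and to 52.9 times when only exons of protein-coding transcripts were counted. Both lengths were fitted together on log axes over the 15428 genes with a mean of at least 10. At a given gene span, the deposited mean rose with exon length at a slope of 0.99. At a given exon length, it rose with gene span at a slope of 0.09, so merged exons were used as the main length.

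The helicase and replication genes were both high. Rif1 (ENSMUSG00000036202, chr2:52072832-52122383, plus strand, 34 merged exons) had the largest mean, 33569 normalized reads, and the second level, 3196 per kb of exons, at the percentile of 97.3. Per kb of the whole gene it led at 677, ahead of Terf1 at 511. Rtel1 (ENSMUSG00000038685, chr2:181319739-181356616, plus strand, 30 merged exons) had a mean of 9021 and a level of 1364 per kb, at the percentile of 88.4. Dkc1 stood 1.09 times above it per kb of exons and 1.80 times per kb of the whole gene.

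The PROMPTs of these genes spanned a wider range than the genes themselves. Terf1 had the strongest PROMPT, with a mean of 85.1 normalized reads, above 98.3% of the 23257 PROMPTs with reads. The PROMPT of Tert had a mean of 45.4, at the percentile of 96.0, and that of Rif1 a mean of 19.9, at the percentile of 90.6. These 3 passed a mean of 10, as did 16.0% of all PROMPTs with reads.

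The other PROMPTs had lower means, and 3 of these 4 were still above the median PROMPT. That of Dkc1 had a mean of 4.87, at the percentile of 75.5. The PROMPT of Terf2 had a mean of 2.86, at the percentile of 68.3, and that of Rtel1 a mean of 1.38, at 58.0. The PROMPT of Pot1a, at 0.761, was the only one below the table median of 0.815. From Terf1 to Pot1a the PROMPT means spanned 112 times, while the gene levels of the same 7 spanned 7.13 times per kb of exons, from Tert to Terf1.

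Few reads stand behind the weakest of these values. A feature with a single read in a single library has a mean fixed by that library's size factor, and the 18 such values found in the PROMPT table ran from 0.0266 to 0.129. By these, the mean of Pot1a rests on 6 to 28 reads over all 18 libraries and that of Rtel1 on 11 to 51. These ranges overlap, so the order of Rtel1 and Pot1a has little depth behind it. The mean of Terf1 rests on 661 to 3194 reads, that of Tert on 353 to 1704 and that of Rif1 on 155 to 747. The ranges of Dkc1 (38 to 182) and Terf2 (23 to 107) lie below those of Terf1 and Tert, and such ranges cover counting only.

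**Figure D2:**
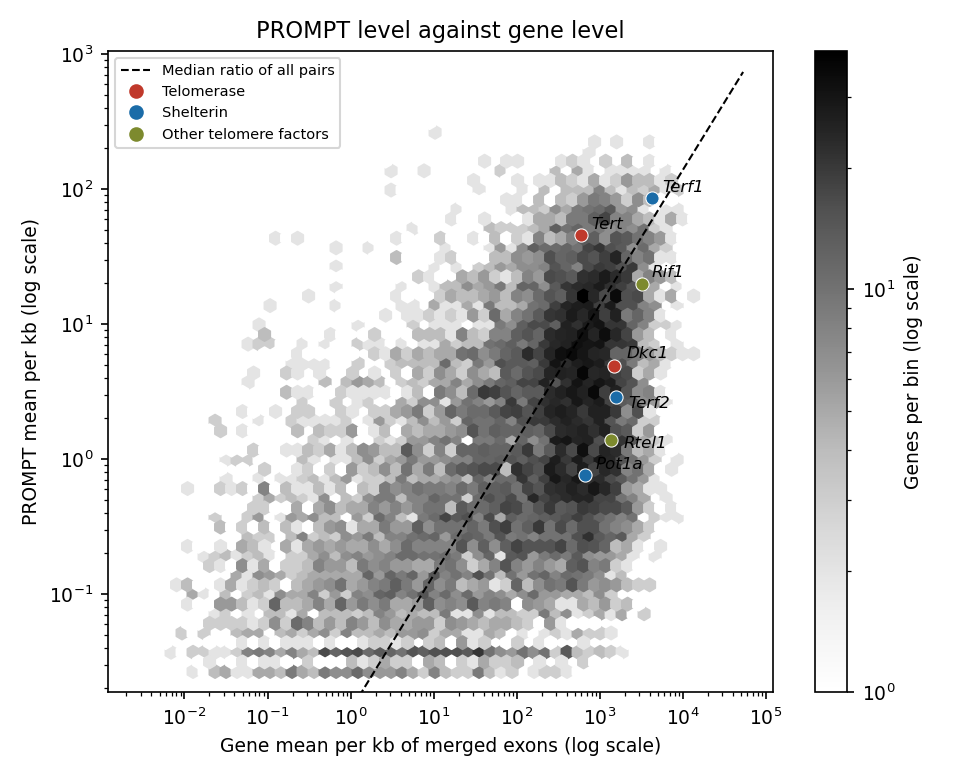
PROMPT mean per kb of window against gene mean per kb of merged exons, both on log axes, for 13696 genes with reads in both tables (grey hexagons, darker with more genes) and the 7 telomere genes with a PROMPT row (coloured points). The dashed line is the median ratio of 1.38%; Tert and Terf1 lie above it, and the other 5 lie below.

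Set against its own gene, the PROMPT of Tert was the strongest. PROMPT and gene tables were normalized separately by the authors, so the ratio is of 2 scales that differ slightly. The Tert PROMPT, per kb of its window, came to 7.61% of the gene's level per kb of exons, and that of Terf1 to 2.00%. Of 18072 symbols found once among the genes and once among the PROMPTs, 13696 had reads in both. The median over these 13696 pairs was 1.38%, with the middle 50% from 0.272% to 7.58%. Genes without PROMPT reads were left out, which raises this median.

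The other 5 genes lay below that median. The ratio was 0.623% for Rif1, 0.328% for Dkc1 and 0.181% for Terf2. It was 0.115% for Pot1a and 0.101% for Rtel1, where the gene was 988 times its PROMPT. The PROMPT mean of Tert was 59.7 times that of Pot1a. The gene level of Pot1a was 1.11 times that of Tert per kb of exons and 0.586 times it per kb of the whole gene.

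Across the tables the ratio was lower for strongly transcribed genes. Part of this can follow from the measure, which has the gene level as its divisor and leaves out PROMPTs without reads. The background was therefore also limited to 4008 pairs with a gene level between those of Tert and Terf1, a choice made after seeing the data. Their median ratio was 0.346%, with the middle 50% from 0.0782% to 1.20%. Tert was at the percentile of 97.4 of these pairs and Terf1 at 83.6. Tert has the lowest gene level of this range, which favours a high percentile for it, and among all pairs it was at 75.1. Rif1 was now above the median, at 61.2, and Dkc1 was near it, at 48.8. Terf2 at 38.2, Pot1a at 31.5 and Rtel1 at 29.3 were within the middle 50%.

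**Figure D3:**
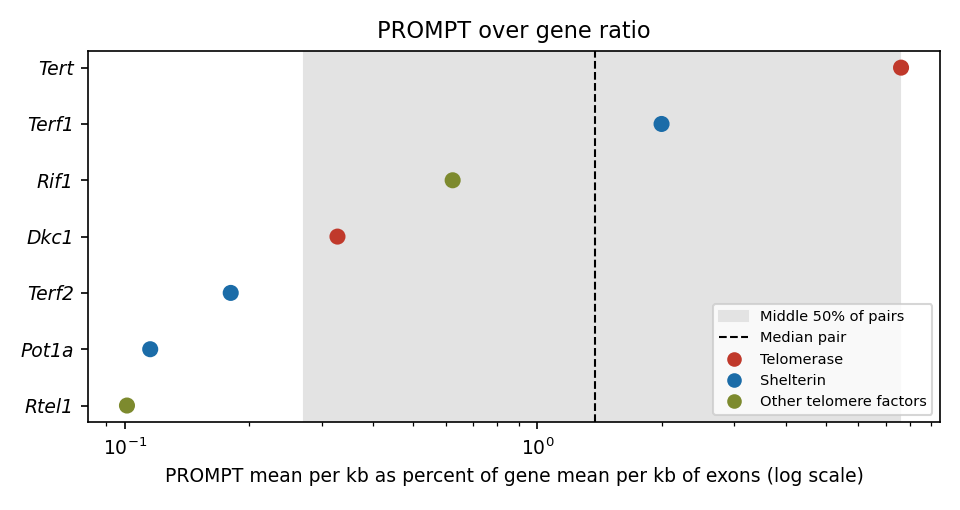
PROMPT mean per kb as a percent of the gene mean per kb of merged exons on a log axis, 1 point per gene without an error, for the 7 telomere genes with a PROMPT row. The grey band holds the middle 50% of 13696 pairs and the dashed line their median of 1.38%; Tert at 7.61% is at the upper edge of the band, and Rtel1 at 0.101%, Pot1a and Terf2 lie left of it.

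The RNA template of telomerase, Terc, has no row in the gene table, but the PROMPT of Terc had a mean of 12.3, between those of Rif1 and Dkc1. The telomerase list holds genes whose products build the particle or bind it, with Tert and Dkc1 among them. All 13 with a gene row were above the median gene. They ran from Tep1, a telomerase-associated protein, at 136 per kb to Pinx1, a telomerase inhibitor, at 3618 per kb. Tert at 597 was the second lowest of these 13, and Dkc1 at 1486 was their median. Among the other partners of dyskerin, the level was 2326 per kb for Nhp2, 890.5 for Gar1 and 622 for Nop10.

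The remaining telomere genes were mostly transcribed as well. Of 63 genes that are not among the 10 and had a level, 57 were above the median gene, with a median of 802 per kb against 1012 for the 10. The list of CST and end processing, whose products resect chromosome ends or fill in the C strand, ran from Dclre1b, the Apollo nuclease, at 98.8 to Pola1, the catalytic subunit of DNA polymerase alpha, at 4497 per kb. The list of shelterin partners ran from Fbxo4, which targets TRF1 for degradation, at 188 to Tnks2, a tankyrase, at 1961 per kb. Repeat readers outside shelterin ran from Zbtb48 (TZAP) at 221 to Zbtb10 at 1228 per kb.

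Replication and helicase genes ran from the resolvase gene Gen1 at 347 to Rpa1, a single-strand binder, at 2094 per kb. The damage signalling list ran from Mad2l2 at 234 to Shld1 at 2290 per kb, both shieldin subunits, and Shld3 is listed at 0. Daxx at 399 and H3f3b at 4502 per kb bounded the ATRX and H3.3 list. Rnaseh1, which removes RNA from RNA-DNA hybrids, at 598 and Smg6, a decay endonuclease, at 2541 per kb bounded the telomeric RNA list.

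Of the 4 meiotic attachment genes 3 were above the median gene, and the list ran from Terb1 at 52.2 to Sun1, which is not restricted to meiosis, at 1481 per kb. The 2C-like list was the low one. Of its 5 genes, 1 was above the median gene, Zscan4d at 133 per kb, and Tcstv1 was lowest at 0.920 per kb. Zscan4 and Tcstv genes are near-identical copies, and only unique alignments were kept, so reads that match several copies were lost. These levels are uncertain and may be too low.

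**Figure D4:**
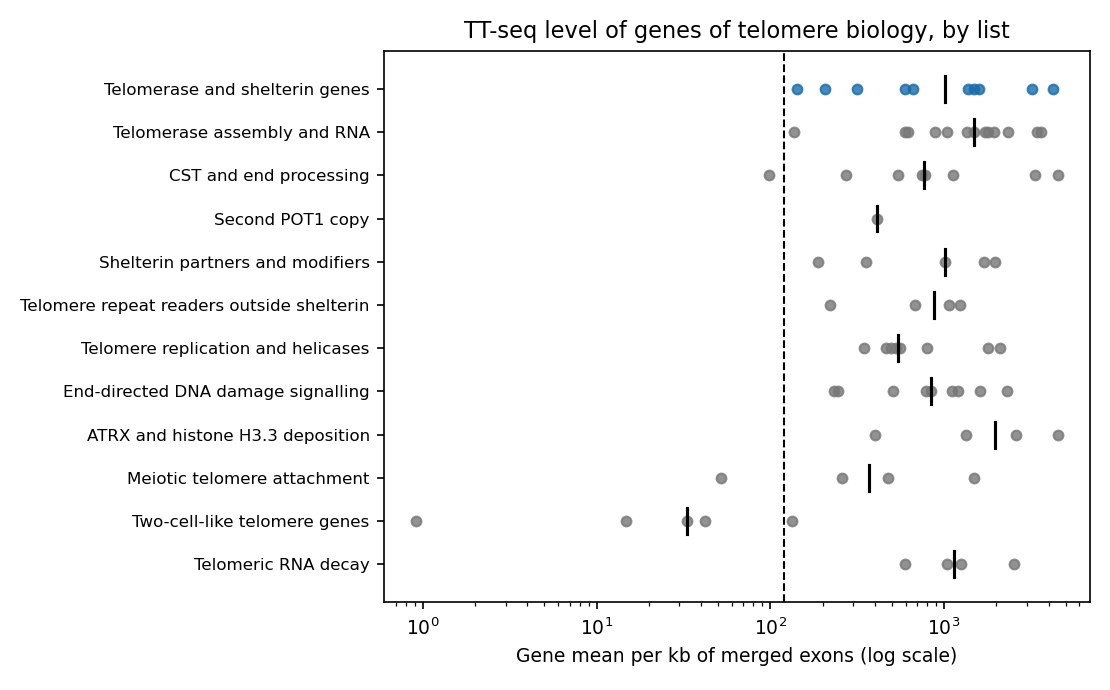
Gene mean per kb of merged exons on a log axis for the 10 telomerase and shelterin genes (blue) and the other telomere lists (grey), 1 point per gene and a black bar at each list's median; the telomerase list holds Tert and Dkc1 again. The dashed line is the median of all genes at 120; the 2C-like list is the one with its median, 33.0, left of it.

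In the mean over the pooled libraries, all 10 ES marker genes were above the median gene, from Utf1 at 202 to Zfp42 at 12345 per kb. None of 6 fibroblast or feeder genes was, with a highest level of 21.2 per kb for Pdgfra. Of 4 neuronal genes 1 was, Stmn2 at 1811 per kb, while Tubb3 is listed at 0. In bulk RNA, fewer cells of a type and less RNA per cell cannot be told apart. The mean pools SPT16-depleted with control libraries, so it does not show these markers for each line or treatment.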

How the data were processed

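TT-seq was analysed from 2 of the deposited tables, for genes and for PROMPTs. The authors trimmed reads, aligned them to mm10 with STAR, kept unique alignments, counted read pairs by strand on Gencode vM25 and normalized each table separately with DESeq2. The deposited value used here is the signal that the authors' tables give per feature, the mean over libraries of counts divided by size factors; totals per library are not given in it. The 4 other value columns of each table hold the authors' own comparison of SPT16-depleted with control cells (log2 fold change, its error, p and adjusted p) and were not used. The eRNA and ncRNA tables were not used either.

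Levels were divided by merged exon length from Gencode vM21 (GRCm38, the same build as mm10), read with Python 3.11.15 and pandas 2.3.3; 21817 of 21859 genes had a model. A PROMPT was taken as 1 kb long. Percentiles are among features with reads. Values of single reads were found as the 18 most frequent means under 0.2 that are not sums of others, and the search was tested on simulated data, where it recovered 18 of 18 in either table. Stretches between starts were read from the GRCm38.p6 genome with samtools 1.23.1, in which 9 of 9 RefSeq promoters of these genes were identical to the table's. All 10 genes are described. Of each telomere list the highest and lowest gene per kb are named, with a few others chosen after their values were seen. The genes and lists were chosen with earlier results of these data known. 1 list of markers of another cell type is not reported here.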

Additional observations from a re-analysis of the deposited data

How the results depend on the processing

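Means over all libraries carry no replicate, so a value was taken to hold when it moved by less than 1.5 times. No paired analysis was possible because values of single libraries were not used, and for the same reason no replicate was left out. The fold from the highest to the lowest shelterin gene, 30.0 per kb of merged exons, moved to 5.84 per kb of the whole gene and to 52.9 with exons of protein-coding transcripts. Limiting the pairs to the members' range of gene levels, chosen after seeing the data, turned the ratio of Rif1 on the log2 scale relative to the median pair from -1.15 to 0.85, since the median of those pairs is lower. The 10 genes above the median gene became 9 among genes with a mean of at least 1 and 8 at a mean of at least 10, where the median gene is higher by construction. The number of genes with a PROMPT ratio above the median pair was 2 under the 4 planned settings. Among these, the setting with PROMPT means on the gene table's scale multiplies all pairs by the same factor, so it could not change this number. Genes with a neighbour in the window numbered 3 at 500 and 2000 bases and from all transcript starts, and 2 when only protein-coding neighbours counted, as Gm49067 is not coding. Dividing by the whole gene raised each PROMPT ratio in percent, to 30.5% for Tert and 0.564% for Rtel1. The median pair rose as well, so these are not to be set against 1.38%. Relative to the median pair, on the log2 scale, Tert moved from 2.46 to 1.91 and Rtel1 from -3.77 to -3.85. Terf1, the other gene above the median pair, was closer to it, at 0.54, and its value did not hold. It was 1.04 per kb of the whole gene and 0.35 without division by length. Among pairs with a gene mean of at least 10 and a PROMPT mean of at least 1 it was 0.24, and among pairs in the members' range 2.53. Putting PROMPT means on the gene table's scale changed the ratios by a factor of 1.02. Depth limits the PROMPTs of Pot1a and Rtel1, and a mean over pooled libraries cannot show any effect of SPT16 loss on these genes.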
